A study of Mus musculus with 12 samples.

Results

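The solute carrier genes were examined in the hippocampus of mice lacking the transcription factors CREB and CREM and of control mice, killed 1 hour after they received kainate or saline. A probe set was taken as a member when the platform annotation gave it a single gene symbol that begins with Slc and a digit, with Slc25a16 and Slc17a6 left out. The rule found 127 probe sets of 103 genes from 35 Slc families, of 7717 probe sets with a single symbol on the array. A probe set was tested when it reached a log2 value of 4 on at least 3 of the 12 arrays. This left 51 member probe sets (40.2% of 127) of 48 genes, against 35.2% of all probe sets with a single symbol, and 3541 probe sets entered the tests in all.

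The 12 hybridisations, 3 for each of 4 groups, used array C of Affymetrix's mouse U74 series. The groups were mutant mice given kainate (20 mg/kg, intraperitoneal), mutant mice given saline, control mice given kainate and control mice given saline. All mice were littermates of both sexes, 5 to 6 weeks old, caged singly and handled for 5 days, and each array holds the pooled hippocampal RNA of 3 animals. The series title names the loss of CREB and CREM as the mutation. The sources used here give neither the exact alleles of mutants and controls nor the promoter of any Cre line. Values are log2 expression after GCRMA, a method that corrects each probe for background by its sequence, and differences are given with the standard error of limma.

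Solute carriers are membrane proteins that move ions, transmitters, nutrients and metabolites without direct use of ATP. In the hippocampus they clear glutamate from the synapse (Slc1 family), fill vesicles with transmitter (Slc17, Slc18 and Slc32), keep neuronal chloride and pH in range (Slc12, Slc4 and Slc9), and extrude calcium after firing (Slc8 and Slc24). Others carry sugars, zinc, vitamins and nucleotide sugars, or cross the inner mitochondrial membrane. Kainate is an agonist of ionotropic glutamate receptors that drives seizures, a state of heavy load on these transporters. CREB and CREM are factors that bind the cAMP response element in promoters and act on activity-dependent genes.

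Members were sorted by what their family carries. A single member can carry something else, as described below for Slc17a5, Slc43a3 and Slc13a4. The inorganic ion class had 9 of its 18 probe sets tested, for Slc12a4, Slc12a5, Slc24a4, Slc4a8, Slc4a10, Slc8a1, Slc8a3, Slc9a2 and Slc9b1. The nucleotide sugar class had 9 of 18 tested, for Slc35a3, Slc35a5, Slc35b2, Slc35b4 by 2 probe sets, Slc35d2, Slc35f1, Slc35f4 and Slc35f6. The transmitter class had 8 of 15 tested, for Slc1a2, Slc1a5, Slc6a17, Slc6a20a, Slc17a5 by 2 probe sets, Slc17a7 and Slc18a1. The class of vitamin, nucleoside, lipid and organic ion carriers had 6 of 23 tested, for Slc19a2, Slc19a3 by 2 probe sets, Slc22a21, Slc29a4 and Slc49a4. Metal carriers had 5 of 7 tested, for Slc30a6, Slc30a10, Slc39a3, Slc39a10 and Slc39a12, and sugar and carboxylate carriers had 5 of 12 tested, for Slc2a3, Slc2a5, Slc13a4, Slc16a9 and Slc16a13. Amino acid carriers had 4 of 17 tested, for Slc7a14, Slc36a4, Slc38a9 and Slc43a3. Mitochondrial carriers had 4 of 11 tested, for Slc25a3, Slc25a12, Slc25a29 and Slc25a53. The last tested probe set is that of Slc9a3r2. Its gene encodes a scaffold protein that binds a sodium-proton exchanger, so it is named after a transporter without being one, as are Slc7a6os and the pseudogene Slc2a4rg-ps, whose probe sets lay below the filter.

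The remaining 76 member probe sets lay below the filter, 70 of them under log2 4 on every array, and 55 genes had no tested probe set. Among these are Slc3a2, the heavy chain of several amino acid exchangers, at 2.92 to 3.05 over the 12 arrays, and Slc38a2, a glutamine carrier, at 3.12 to 4.17. Just inside the filter stood Slc35d2, which reached log2 4 on 3 arrays with a range of 3.89 to 4.11. Slc7a14 and Slc22a21 followed with 4 arrays each, at 3.92 to 4.08 and 3.83 to 4.18. Just outside stood Slc38a2 and Slc35d3, the second of them at 3.41 to 4.32, with 2 arrays each. Members under the filter were not tested, and a dim probe set does not show that its gene is silent.

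Several bright readings came from probe sets that the array's makers marked with the suffix f, for probes shared within a family of similar sequences. Of the 51 tested members 8 carry this suffix, and for 5 of them the same gene has another probe set below the filter. Slc17a7, which encodes the vesicular glutamate transporter VGLUT1 of pyramidal and granule neurons, read 6.99 to 8.40 on its family probe set and 1.75 to 2.08 on the other. Slc2a3, the neuronal glucose transporter GLUT3, read 4.53 to 5.84 and 1.31 to 1.43 in the same way. Slc13a4, a sulphate transporter, read 7.80 to 9.07 on its family probe set and 2.74 to 2.91 on the other. The same held for Slc25a53 and Slc1a5. The values of these genes below are those of the brighter probe set and may include related transcripts. Slc12a4, Slc16a9 and Slc35f6 also carry the suffix f, and their values may include related transcripts too.

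The array of mutant kainate replicate 3 was far from the 11 others along principal component 1 (53.2% of the variance) and had a spread (SD) of 1.52 over probe sets, against 1.71 to 1.78 on the others. The array labelled control kainate replicate 3 scored 0.936 on a genotype score built on the saline arrays from 50 probe sets, where 0 is the control and 1 the mutant mean. The other control arrays scored -0.0658 to 0.173 and the mutant arrays 0.729 to 1.35. On the second component (22.9%) the replicate 1 arrays of all groups lay at -14.4 to -10.8, and mutant kainate replicate 3 lay near them at -9.05. The other replicate 2 and 3 arrays lay at -0.276 to 15.1, so values within replicate 1 and within replicates 2 and 3 are given below, and what the replicate numbers stand for is not in the labels. The difference between the 3' and 5' actin probe sets, a measure of RNA integrity, was 2.30 and 2.44 on mutant kainate replicates 2 and 3 against 1.83 and 1.74 on the saline ones. In control mice it was 2.27 and 2.20 after kainate against 1.82 and 1.74 after saline. In replicate 1 it was 1.61 after kainate against 2.00 after saline in mutants, and 1.77 against 1.92 in controls. The array carries few cell type markers, with 1 of 10 neuronal genes on it (Nefl, below the filter), so the hippocampal label could be checked only in part. Astrocyte (Gfap, Apoe, Pla2g7) and microglial (Cx3cr1, Laptm5, P2ry12) genes were above the filter. The mean of the 3 astrocyte genes was 6.91 to 7.39 in mutant kainate, 6.76 to 7.26 in mutant saline, 6.77 to 7.42 in control kainate and 6.35 to 6.74 in control saline mice. That of the 3 microglial genes was 6.72 to 7.64, 7.30 to 7.61, 6.95 to 7.70 and 6.92 to 7.20 in the same order. The astrocyte mean was higher without overlap after kainate in controls, where 6.02% of all tested probe sets were. Both means were higher without overlap in mutants after saline, where 29% of all tested probe sets were. The part of cell makeup in the results was not tested. Of the oligodendrocyte, endothelial and choroid plexus or ependymal lists, a single gene each was above the filter. Ermn read 5.21 to 6.01 in mutant kainate, 5.65 to 6.04 in mutant saline, 5.98 to 6.22 in control kainate and 5.88 to 6.19 in control saline mice. Flt1 read 5.70 to 7.49, 6.44 to 6.62, 6.70 to 7.38 and 6.49 to 6.95 in the same order. Dynlrb2, of the choroid plexus and ependymal list, was lower after kainate without overlap in both genotypes. It read 4.36 to 4.56 after kainate against 4.67 to 4.91 after saline in mutants, and 4.42 to 4.49 against 4.58 to 4.72 in controls. Of all tested probe sets, 8.44% lay wholly below saline in mutants and 4.63% in controls. Folr1 and Clic6 of that list were below the filter. In bulk tissue, fewer cells of a type and less RNA per cell cannot be told apart.

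No solute carrier passed the threshold in any of the 7 comparisons made. Averaged over the genotypes, 0 of 51 member probe sets passed for kainate against saline in limma's test with Benjamini-Hochberg adjustment over all 3541 probe sets, where 5 of all probe sets (0.141%) passed higher and 0 (0%) lower. At an unadjusted p under 0.05 there were 2 members higher (3.92%, against 3.19% of all probe sets) and 3 lower (5.88%, against 8.11%). These shares lie near the background. No member lay wholly above (0%, against 0.395%) or wholly below (0%, against 0.452%) saline over all 6 arrays of each treatment. The median difference of the members was -0.03, beside -0.0415 over all probe sets tested, and 23 of 51 were positive (45.1%, against 31.6%).

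Slc4a10 had the most negative difference after kainate among the members, without passing the threshold. It encodes a sodium-driven bicarbonate exchanger that loads neurons with bicarbonate and counters acid after firing. It read 6.18, 4.15 and 3.01 on the arrays of replicates 1, 2 and 3 of mutant kainate mice, against 6.34, 6.95 and 7.12 in mutant saline mice. In control mice it read 6.78, 5.68 and 5.12 after kainate, against 6.93, 7.67 and 7.29 after saline. Each kainate array lay below every saline array of its genotype, and the replicate 1 arrays lay closest to saline. The averaged difference was -1.90 ± 0.51, with a 95% interval of -3.04 to -0.75 (limma, n = 6 arrays against 6, adjusted p = 0.349). Replicate 1 alone gave -0.15 and the other replicates -2.77. Leaving out replicate 3 of control kainate and of mutant kainate, and blocking on replicate 1 against replicates 2 and 3, gave -1.40 (limma, adjusted p = 0.274). This setting is called the 10-array fit below. Without mutant kainate replicate 1 the difference was -2.33 and passed in limma's test (adjusted p = 0.0225). In that setting 56 of all probe sets passed for averaged kainate, 18 higher and 38 lower, against 5 with all arrays. Over all arrays left out in turn the Slc4a10 difference lay between -2.33 and -1.54. The kainate arrays of replicates 2 and 3 also had the higher actin 3' to 5' differences given above, and Dynlrb2 was lower on all kainate arrays. The part of RNA integrity or of cell makeup in this difference was not tested. The mutant kainate value of 3.01 lies below the dim level, so the size of the difference there is uncertain.

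**Figure D1:**
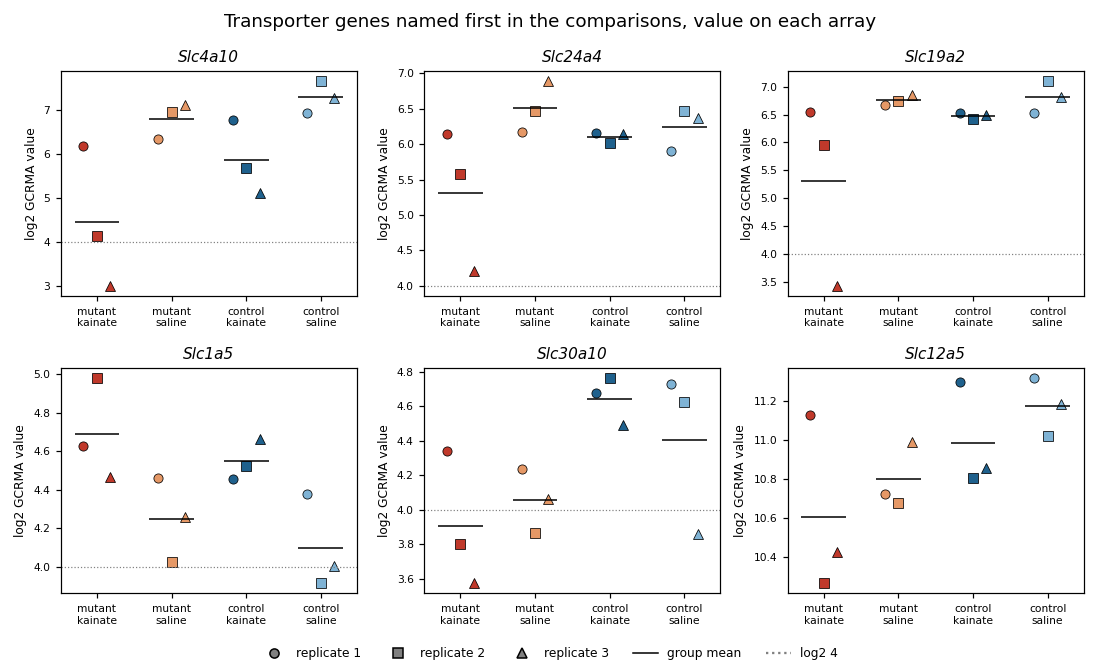
Log2 GCRMA values on each of the 12 arrays for 6 transporter genes, with groups on the x axis, symbols for the replicate number and bars for group means; each panel has its own y axis, and the dotted line is the dim level of log2 4. Slc4a10 was lower on the kainate arrays of replicates 2 and 3 in both genotypes and near saline in replicate 1, and Slc30a10 was lower on all mutant kainate arrays than on any control kainate array.

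Slc1a5 showed the smallest p-value upward after kainate. It encodes ASCT2, an exchanger of glutamine, serine and other neutral amino acids. It read 4.63, 4.98 and 4.47 in mutant kainate mice, against 4.46, 4.03 and 4.26 in mutant saline mice. Control mice read 4.46, 4.52 and 4.66 after kainate, against 4.38, 3.92 and 4.0 after saline. All 3 kainate arrays lay above every saline array in both genotypes. In mutants the margin was narrow, with a lowest kainate value of 4.47 and a highest saline value of 4.46. The averaged difference was 0.45 ± 0.12, or 1.36-fold (limma, adjusted p = 0.349). Replicate 1 alone gave 0.12 and the other replicates 0.61. As for Slc4a10, the part of RNA integrity in this difference was not tested. The saline values lie near log2 4 and the probe set is of the family kind, so the size is uncertain.

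Slc24a4 and Slc19a2 were lowest on mutant kainate replicate 3, the array with the narrow spread. Slc24a4 encodes a potassium-dependent sodium-calcium exchanger, and it read 6.15, 5.57 and 4.21 in mutant kainate mice, against 6.17, 6.48 and 6.89 in mutant saline mice. The control values were 6.15, 6.02 and 6.15 after kainate, against 5.91, 6.46 and 6.36 after saline. The groups did not overlap in mutants and overlapped in controls, with an averaged difference of -0.67 ± 0.30 (limma, adjusted p = 0.442) that came to -0.38 in the 10-array fit. Slc19a2, a thiamine transporter, read 6.55, 5.96 and 3.43 in mutant kainate mice, against 6.67, 6.75 and 6.86 in mutant saline mice. In controls it read 6.52, 6.42 and 6.49 after kainate, against 6.53, 7.10 and 6.82 after saline. Every kainate array lay below the saline arrays of its genotype, and the averaged difference of -0.89 ± 0.45 (limma, adjusted p = 0.505) was -0.42 in the 10-array fit.

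Slc35a5 and Slc16a13 also had an unadjusted p under 0.05 for averaged kainate. Slc35a5, of the nucleotide sugar transporter family, read 6.99, 5.72 and 5.86 in mutant kainate mice, against 6.81, 6.36 and 7.61 in mutant saline mice. Control mice read 6.93, 5.75 and 6.03 after kainate, against 7.08, 7.52 and 6.81 after saline. The groups overlapped in both genotypes through replicate 1, and the averaged difference of -0.82 ± 0.32 (limma, adjusted p = 0.384) came to 0.01 in replicate 1 and -1.23 in the other replicates. Slc16a13, a member of the monocarboxylate transporter family, read 4.12, 4.61 and 4.91 in mutant kainate mice, against 4.07, 4.20 and 4.09 in mutant saline mice. It read 4.20, 4.52 and 4.35 after kainate in controls, against 4.16, 4.0 and 4.21 after saline. The averaged difference was 0.33 ± 0.12 (limma, adjusted p = 0.375). Replicate 1 alone gave 0.04 and the other replicates 0.47. Without mutant kainate replicate 1 the averaged Slc16a13 difference was 0.43 and passed in limma's test (adjusted p = 0.049), in the setting where 56 of all probe sets passed. Over all arrays left out in turn the difference lay between 0.24 and 0.43. The Slc16a13 saline values lie near log2 4, and its highest value is on the outlying mutant kainate replicate 3, so the size is uncertain. As for Slc4a10, the part of RNA integrity in the Slc35a5 and Slc16a13 differences was not tested.

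Kainate in each genotype taken alone gave no member past the threshold either, in limma's test. Of all probe sets, 0.0282% passed higher and 0% lower in each genotype. In mutants 2 members (3.92%) were higher and 3 (5.88%) lower at an unadjusted p under 0.05, where 1.55% and 6.92% of all probe sets were. Of the members, 2 (3.92%) lay above saline on all kainate arrays, Slc1a5 and Slc18a1, and 6 (11.8%) below, Slc4a10, Slc24a4, Slc19a2, Slc17a5, Slc43a3 and Slc38a9. The background for this is 1.67% above and 8.44% below. Without replicate 3 of control kainate and of mutant kainate the members were 3 above (background 5.08%) and 16 below (28.5%). With all arrays the members' median was -0.0994 beside -0.0846 over all probe sets, with 14 positive (27.5%, against 26.5%). In controls 1 member (1.96%, against 1.78%) was higher and 0 (0%, against 2.68%) lower at an unadjusted p under 0.05. Of the members, 4 probe sets lay wholly above saline (7.84%, against 6.02%), those of Slc1a5, Slc17a7 and Slc19a3 by both of its probe sets. Another 2 lay wholly below (3.92%, against 4.63%), Slc4a10 and Slc19a2. Without the same arrays, 6 lay above (background 9.57%) and 2 below (6.21%). In controls 27 members were positive (52.9%, against 53.1%). For Slc17a5 in mutants, -0.20 ± 0.09 on its second probe set (limma, adjusted p = 0.579), the direction was lost when quantile normalization was applied again (0.002646).

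Between the genotypes, 0 members passed for mutant against control averaged over the treatments in limma's test, and so did 0 (0%) of all 3541 probe sets in each direction. At an unadjusted p under 0.05 there were 5 members higher (9.8%, against 14.3%) and 2 lower (3.92%, against 4.8%). The 2 lower ones were Slc30a10 and Slc12a5, and the members' median was -0.0427 beside -0.00617 over all probe sets, with 24 positive (47.1%, against 48.9%).

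Slc30a10, which encodes an exporter of manganese named as a zinc transporter for its family, read lower in mutants. It read 4.34, 3.80 and 3.57 in mutant kainate mice, against 4.67, 4.76 and 4.49 in control kainate mice. After saline it read 4.24, 3.86 and 4.06 in mutants, against 4.73, 4.62 and 3.86 in controls. After kainate every mutant array lay below every control array, and after saline control replicate 3 was as low as the lowest mutant array. The averaged difference was -0.54 ± 0.18, with a 95% interval of -0.95 to -0.14 (limma, adjusted p = 0.247), and replicate 1 alone gave -0.41, the other replicates -0.61. Without any 1 array it stayed at -0.68 to -0.46. Mutant values reach below log2 4, so the size of the difference is uncertain.

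Slc12a5 encodes KCC2, the neuronal potassium-chloride cotransporter that keeps chloride low enough for GABA to inhibit. It read 11.13, 10.27 and 10.43 in mutant kainate mice, against 11.30, 10.80 and 10.86 in control kainate mice. After saline it read 10.73, 10.68 and 10.99 in mutants, against 11.32, 11.02 and 11.19 in controls. After saline all mutant arrays lay below all control arrays, and after kainate mutant replicate 1 overlapped with controls. The averaged difference was -0.38 ± 0.16, with an interval of -0.73 to -0.02 (limma, adjusted p = 0.257), with -0.38 in replicate 1 and -0.38 in the other replicates. It was -0.37 in the 10-array fit.

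Slc8a1, the sodium-calcium exchanger NCX1, read 5.30, 5.77 and 5.70 in mutant kainate mice, against 5.98, 7.56 and 7.05 in control kainate mice. After saline it read 5.37, 7.01 and 7.42 in mutants, against 5.77, 8.24 and 7.70 in controls. Mutant arrays lay below control arrays of the same replicate number in every case, and the groups did not overlap after kainate. The averaged difference was -0.96 ± 0.51 (limma, adjusted p = 0.314). This standard error also holds the parting of replicate 1 from the other replicates, which is given below for Slc8a1. Slc4a10, described above, differed by -0.95 ± 0.51 between mutants and controls on the same average (limma, adjusted p = 0.320).

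Of the 5 members higher in mutants at an unadjusted p under 0.05, Slc22a21 reached log2 4 on 4 arrays, all from mutants. It could pass the filter only through the group where it is high, so its direction is given no weight. This carnitine transporter read 4.05, 4.18 and 4.05 in mutant saline mice, against 3.91, 3.83 and 3.90 in control saline mice. The other members differed by 0.13 or less. They were Slc36a4, an amino acid transporter (0.13 ± 0.05), Slc17a5, the lysosomal sialic acid exporter (0.13 ± 0.05 on its first probe set), Slc43a3, a purine base transporter (0.11 ± 0.05), and Slc30a6, a zinc transporter of the Golgi (0.10 ± 0.04). Each adjusted p in limma's test lay between 0.247 and 0.260. Slc36a4 (4.25 to 4.56 over the 12 arrays), Slc43a3 (4.04 to 4.35) and Slc30a6 (4.02 to 4.25) read close to the dim level. All 5 probe sets carry another suffix of the array's makers, i for Slc17a5 and r for the rest. Of the 51 tested members, 10 carry the suffix r and 5 the suffix i. The part of probe set quality in these differences was not tested. The part of the shift in array medians, given below, in these differences was not tested.

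After saline alone, 0 members passed in limma's test, 5 were higher (9.8%, against 10.7%) and 0 lower (0%, against 1.41%) at an unadjusted p under 0.05. Of the members, 13 (25.5%) read higher on all mutant than on all control saline arrays, and 2 (3.92%) lower. Of these 13, Slc22a21 and Slc35d2 reached log2 4 on mutant arrays only, so the filter favoured their direction, and 11 are left without them. Over all probe sets the shares were 29% and 5.11%, so the members' shares lie near the background. The array medians moved the same way, at 3.32 to 3.37 on the mutant saline arrays against 3.26 to 3.28 on the control saline arrays, and the part of this shift in the count was not tested. Over all 127 members, dim ones included, 72 (56.7%) read higher and 2 lower on all mutant saline arrays, against 61.4% and 1.68% of all 11868 probe sets. Positive differences numbered 30 after saline (58.8%, against 58.7%). The 2 lower ones among the tested members were Slc12a5 and Slc35b4 by 1 of its probe sets. After kainate 0 members passed and 21 were positive (41.2%, against 46.5%), 1 was higher (1.96%, against 0.904%), Slc9a3r2, and 1 lower (1.96%, against 3.81%), Slc30a10. No member lay wholly above (0%, against 2.43%) and 2 lay wholly below (3.92%, against 3.78%), Slc30a10 and Slc8a1. Without the same arrays, 3 lay above (background 7%) and 4 below (10.4%). The interaction of genotype and kainate gave 0 members at adjusted p under 0.05 and 0 at an unadjusted p under 0.05, where 0.198% of all probe sets were higher and 0.678% lower in limma's test, and 12 members were positive (23.5%, against 26.5%). The member with the smallest p was Slc19a3, a thiamine transporter, at -0.20 ± 0.09 (limma, adjusted p = 0.973).

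**Figure D2:**
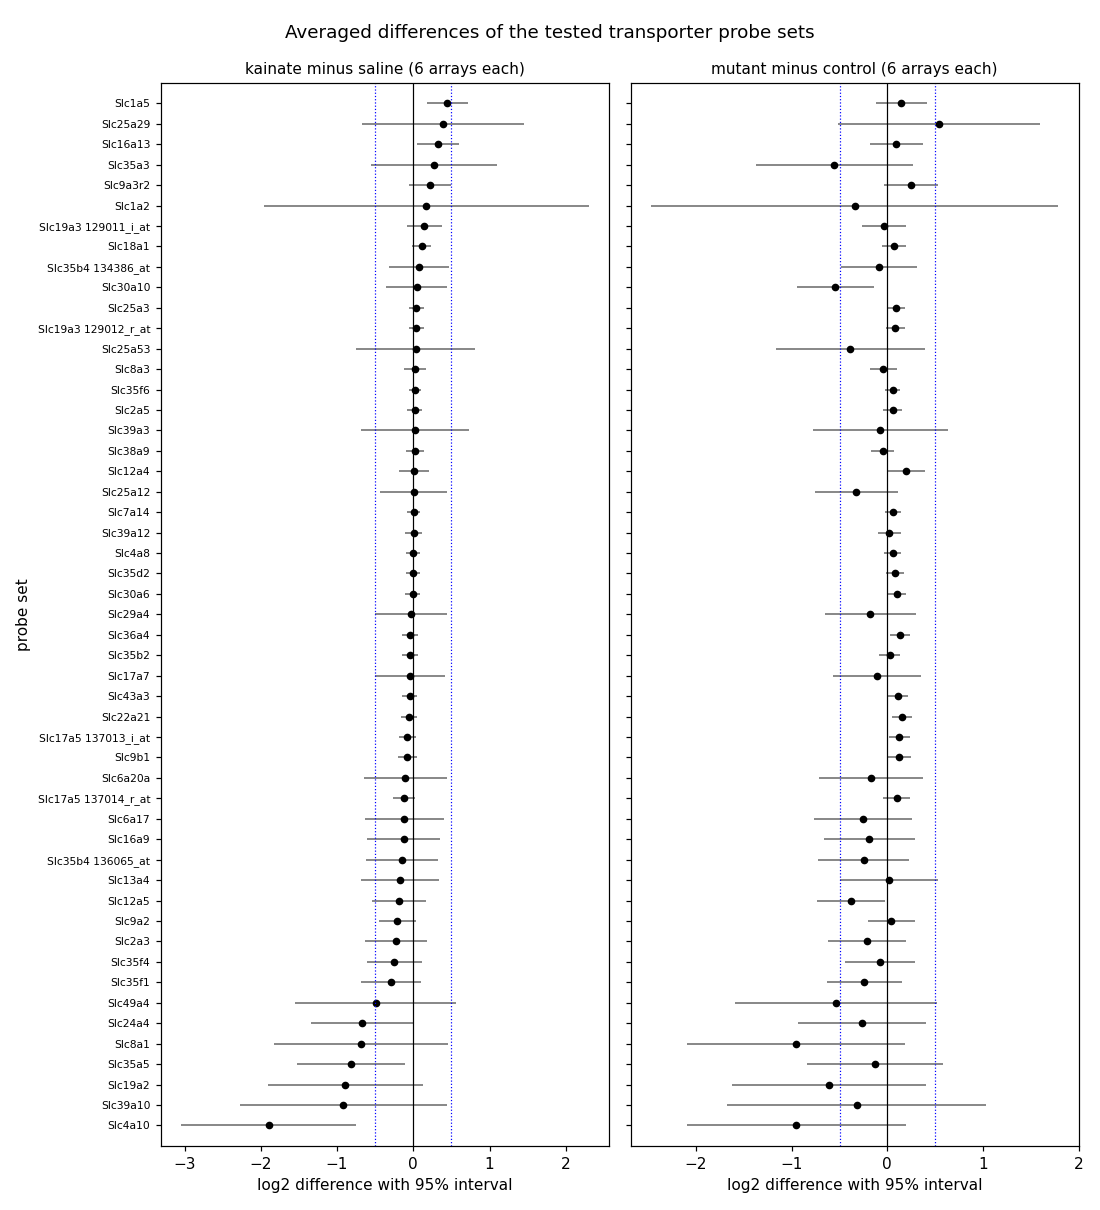
Log2 differences of the 51 tested transporter probe sets with 95% intervals from the limma fit, kainate minus saline on the left and mutant minus control on the right (6 arrays against 6 each), probe sets in the order of the kainate difference and dotted lines at -0.5 and 0.5. Slc4a10 had the most negative kainate difference at -1.90, and 26 intervals in each panel lay wholly between the dotted lines.

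For many members the intervals bound the difference in probe set values closely. The 95% interval for averaged kainate lay within 0.5 of 0 for 26 of 51 members (51%, against 56.8% of all probe sets), and the same number held for averaged genotype (51%, against 58.4%). It did so for 21 members for kainate in mutants (41.2%, against 47.2%) and 21 in controls (41.2%, against 48.7%). For genotype it did so for 20 after kainate (39.2%, against 48.3%) and 24 after saline (47.1%, against 49.9%), and for the interaction for 20 (39.2%, against 39.2%). Members with both averaged intervals inside 0.5 included Slc8a3, the calcium exchanger NCX3, Slc12a4, the widely expressed chloride cotransporter KCC1, Slc25a3, the mitochondrial phosphate carrier, and Slc39a12, a zinc importer. Many of them read close to the dim level, where GCRMA compresses differences, so a narrow interval there does not bound the response of the gene. Slc12a4, on a family probe set that may read related transcripts, read 6.76 to 7.40, with an interval for averaged kainate of -0.19 to 0.21. The widest interval was that of Slc1a2, at -1.96 to 2.30 for averaged kainate, in a fit without the replicate number. In the 10-array fit, which holds replicate 1 apart, its difference was 0.07 ± 0.21 (limma, adjusted p = 0.882).

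The transmitter class showed no common direction. It was drawn by family, so it includes Slc1a5, Slc6a20a and Slc17a5, described here as carriers of amino acids or sialic acid. Of the 8 tested probe sets 3 were positive for averaged kainate with a median of -0.0637, and 4 for averaged genotype with a median of -0.0189. Slc6a17, a vesicular transporter of neutral amino acids in glutamatergic neurons, read 9.85, 9.02 and 8.46 in mutant kainate mice, against 9.59, 9.14 and 9.06 in mutant saline mice. It read 9.74, 9.23 and 9.23 after kainate in controls, against 9.77, 9.27 and 9.41 after saline. The spread between replicate numbers exceeded that between groups, with an averaged kainate difference of -0.12 ± 0.23. Slc17a7 read 8.40, 7.92 and 6.99 in mutant kainate mice, against 8.37, 8.10 and 7.92 in mutant saline mice. In controls it read 8.11, 8.19 and 8.26 after kainate, against 7.92, 7.95 and 7.89 after saline. The control kainate arrays all lay above the control saline arrays, by 0.27 ± 0.29 on average, while the mutant groups overlapped. Its averaged kainate difference of -0.05 ± 0.20 became 0.10 in the 10-array fit. Slc18a1, a vesicular monoamine transporter best known from endocrine cells, read 4.20, 4.40 and 4.20 in mutant kainate mice, against 4.11, 4.13 and 4.09 in mutant saline mice. These groups did not overlap, at 0.16 ± 0.08 (limma, adjusted p = 0.586), while those of controls did. Slc6a20a, a proline transporter, read 4.84 to 6.50 over the 12 arrays.

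Slc1a2 differed far more between replicate numbers than between groups. It encodes GLT-1, the astrocyte transporter that takes up most synaptic glutamate. It read 3.88, 6.62 and 6.73 in mutant kainate mice, 3.68, 7.09 and 6.77 in mutant saline mice, 3.87, 7.46 and 7.73 in control kainate mice, and 4.42, 6.80 and 6.54 in control saline mice. All 4 replicate 1 arrays lay far below all 8 others, by -3.00 on average. The averaged kainate difference was 0.17 ± 0.95 and the averaged genotype difference -0.34 ± 0.95, neither larger than the spread. The 10-array fit gave 0.07 ± 0.21 and -0.24 ± 0.21.

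Other transporters parted by replicate number in the same or the opposite sense. Slc39a10, a zinc importer, read 7.20, 4.99 and 3.65 in mutant kainate mice, 6.84, 5.94 and 6.47 in mutant saline mice, 7.16, 5.19 and 5.10 in control kainate mice, and 7.12, 6.19 and 6.24 in control saline mice. Replicate 1 was the highest in each group, by 1.61 on average. Slc39a3, a zinc importer of the same family, was 0.96 higher in replicate 1. For Slc8a1 replicate 1 differed from the others by -1.45. In all, 5 members (9.8%, against 13.2% of all probe sets) were above replicates 2 and 3 in all 4 groups, and 2 (3.92%, against 4.07%) were below. Mutant kainate replicate 3 gave the lowest of the 12 values for 21 members (41.2%, against 38.9%), and the highest for 11 (21.6%, against 14.2%). Slc49a4, a carrier of the lysosomal membrane, read 5.67 on it and 8.25 to 9.0 on the other 11 arrays, and Slc25a29, a mitochondrial carrier of basic amino acids, read 7.35 on it and 4.07 to 5.26 on the others.

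**Figure D3:**
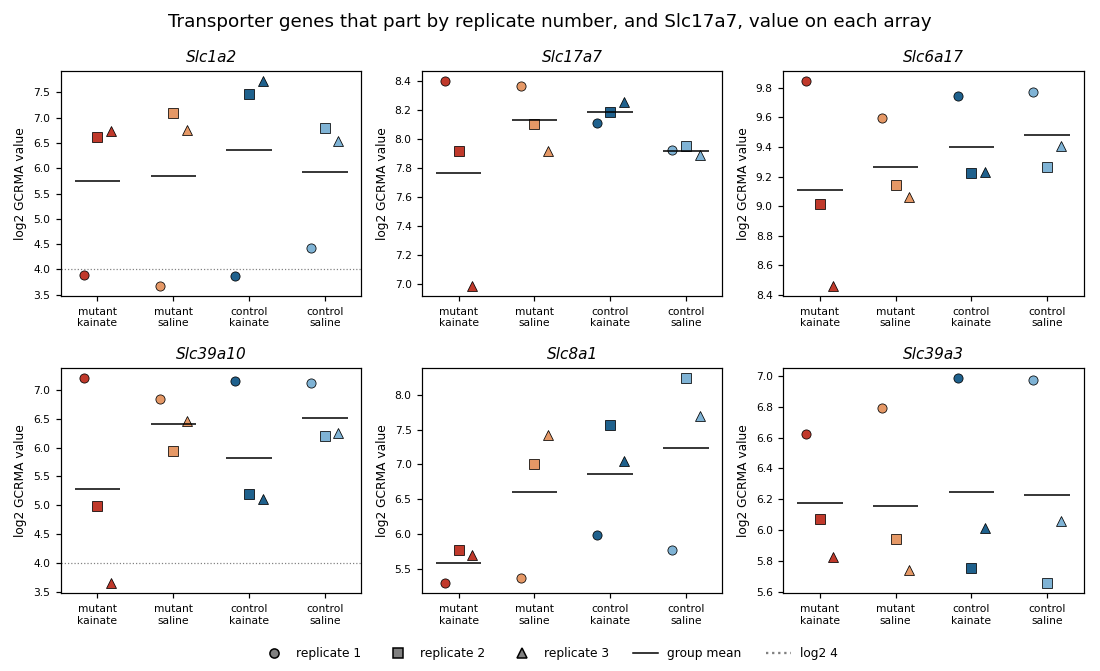
Log2 GCRMA values on each of the 12 arrays for 6 transporter genes, with groups on the x axis, symbols for the replicate number and bars for group means; each panel has its own y axis, and the dotted line is the dim level of log2 4. The 4 replicate 1 arrays of Slc1a2 lie at 3.68 to 4.42 and the other 8 at 6.54 to 7.73, whatever the genotype or treatment.

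**Figure D4:**
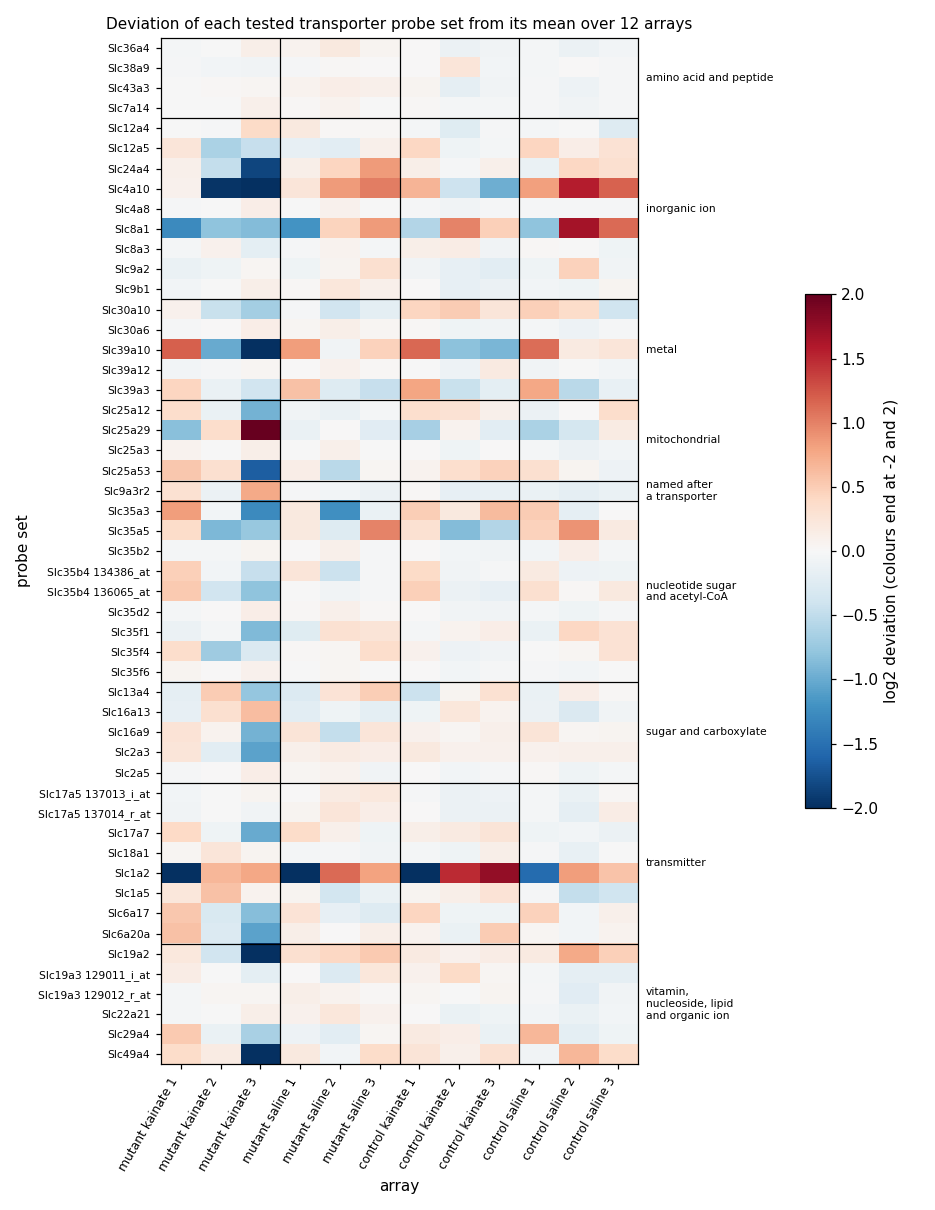
Deviation of each of the 51 tested transporter probe sets (rows, sorted by what the family carries) from its own mean over the 12 arrays (columns, by group and replicate), in log2 units, with colours ending at -2 and 2. The column of mutant kainate replicate 3 is low for 21 members that have their lowest value there, and Slc1a2 is low in every replicate 1 column.

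Over the 12 arrays the members' median range was 1.05, beside 0.799 for all tested probe sets, and 26 of 51 (51%, against 43.1%) ranged over more than 1. Genes with 2 tested probe sets could be compared with themselves, as a description only. For Slc19a3 and Slc17a5 the 2 probe sets carry the suffixes i and r. Probe sequences were not in the sources used here. The 2 readings of a gene may therefore share probes and are not taken as independent. The 2 probe sets of Slc35b4, a transporter of UDP-xylose and UDP-N-acetylglucosamine, both read highest in replicate 1 of every group. For Slc19a3 the control kainate values were above the control saline values on both, by 0.29 ± 0.15 and 0.14 ± 0.06 (limma, adjusted p = 1 each). For Slc17a5 the averaged genotype difference was 0.13 ± 0.05 and 0.10 ± 0.06.

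Further ion, sugar, nucleotide sugar and mitochondrial carriers differed between treatments or genotypes without passing the threshold. Slc9a2, a sodium-proton exchanger, read 5.72, 5.77 and 5.89 in mutant kainate mice, against 5.78, 5.92 and 6.18 in mutant saline mice, with an averaged kainate difference of -0.21 ± 0.11 (limma, adjusted p = 0.511). In controls it read 5.79, 5.68 and 5.65 after kainate, against 5.78, 6.32 and 5.79 after saline, and the groups overlapped in both genotypes. Slc2a3 read 5.84, 5.38 and 4.53 in mutant kainate mice, while its 3 other groups lay between 5.68 and 5.79. Replicates 2 and 3 of mutant kainate mice lay below that range. Slc35a3, a transporter of UDP-N-acetylglucosamine into the Golgi, read 5.14, 4.24 and 3.03 in mutant kainate mice, against 4.79, 4.49 and 4.93 in control kainate mice. After saline it read 4.5, 3.07 and 4.17 in mutants, against 4.81, 4.12 and 4.31 in controls, an averaged genotype difference of -0.55 ± 0.37 (limma, adjusted p = 0.405) with groups that overlapped. Slc25a12, the mitochondrial aspartate-glutamate carrier of neurons, read 6.83, 6.35 and 5.53 in mutant kainate mice, against 6.81, 6.77 and 6.59 in control kainate mice. After saline it read 6.40, 6.35 and 6.43 in mutants, against 6.35, 6.49 and 6.84 in controls, and the groups overlapped under both treatments. The scaffold gene Slc9a3r2 read 5.05, 4.63 and 5.5 in mutant kainate mice, against 4.77, 4.58 and 4.59 in control kainate mice. Its averaged genotype difference of 0.25 ± 0.12 (limma, adjusted p = 0.299) came to 0.12 in the 10-array fit. Slc35f1, an Slc35 member that read 8.47 to 9.77, had an averaged kainate difference of -0.29 ± 0.17 (limma, adjusted p = 0.58). Slc35f4, at 3.64 to 4.71, had -0.25 ± 0.16 on the same average (limma, adjusted p = 0.616). Slc39a10 had -0.92 ± 0.60 (limma, adjusted p = 0.616), with mutant kainate replicate 3 its lowest array. Slc25a53, at 4.84 to 7.03, had an averaged genotype difference of -0.39 ± 0.35, and Slc16a9, at 5.94 to 7.16, one of -0.19 ± 0.21. Slc13a4 had an averaged kainate difference of -0.18 ± 0.23.

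Among other membrane transport genes no call was made either. The list holds ion-pumping ATPases, ABC transporters, organic anion carriers named Slco and aquaporins, and 13 of its 47 probe sets were tested. None passed in any of the 7 comparisons in limma's test. At an unadjusted p under 0.05, 0 were higher and 1 lower for averaged kainate, where 3.19% and 8.11% of all tested probe sets were. For averaged genotype 1 was higher and 0 lower, where 14.3% and 4.8% of all tested probe sets were. The median difference of the list for averaged kainate was -0.0968, beside -0.0415 over all probe sets tested.

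Promoters were read because the mutant mice lack factors that bind the cAMP response element. Promoter windows (250 bases before to 50 after a gene's start, RefSeq, build GRCm38.p6) were found for 78 of the 103 genes and for 40 of the 48 tested ones. The full element TGACGTCA, which reads the same on both strands, was in 0 of the 46 windows of tested members and in 588 of all 32851 windows (1.79%). The only member with it was Slc38a6, a dim amino acid carrier. The shorter core TGACG, searched on both strands and contained in the full element, was in 6 of 46 windows of tested members (13%), against 20.8% of all windows. These belong to Slc6a17, Slc6a20a, Slc8a3, Slc19a3, Slc25a3 and Slc25a53. A match is a description and not a binding site. The windows of the leading members Slc4a10 (1 of its 2 windows) and Slc30a10 are shown, with the core in capitals on either strand. Beside them are those of Slc6a17 (1 of its 2 windows, the other without the core) and Slc25a3, which hold the core more than once. The windows shown lie at chr2:62046265-62046564 (plus strand), chr1:185454598-185454897 (plus strand), chr3:107517969-107518268 (minus strand) and chr10:91123918-91124217 (minus strand).
Slc4a10: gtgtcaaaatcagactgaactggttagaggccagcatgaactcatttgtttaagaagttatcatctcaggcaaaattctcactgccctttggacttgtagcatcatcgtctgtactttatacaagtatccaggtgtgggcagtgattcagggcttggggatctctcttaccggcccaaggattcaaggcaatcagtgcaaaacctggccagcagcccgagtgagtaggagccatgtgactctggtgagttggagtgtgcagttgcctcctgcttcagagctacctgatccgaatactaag
Slc30a10: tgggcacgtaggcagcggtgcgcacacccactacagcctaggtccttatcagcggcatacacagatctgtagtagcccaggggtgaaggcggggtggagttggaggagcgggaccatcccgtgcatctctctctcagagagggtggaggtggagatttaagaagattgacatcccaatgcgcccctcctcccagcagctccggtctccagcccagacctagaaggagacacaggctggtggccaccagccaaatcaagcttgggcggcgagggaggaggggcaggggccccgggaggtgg
Slc6a17: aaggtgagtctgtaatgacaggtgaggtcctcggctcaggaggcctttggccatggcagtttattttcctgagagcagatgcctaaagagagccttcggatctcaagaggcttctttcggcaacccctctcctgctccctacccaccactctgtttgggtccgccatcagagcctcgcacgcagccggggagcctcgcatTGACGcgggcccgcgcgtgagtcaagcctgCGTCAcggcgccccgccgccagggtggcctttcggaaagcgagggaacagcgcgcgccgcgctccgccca
Slc25a3: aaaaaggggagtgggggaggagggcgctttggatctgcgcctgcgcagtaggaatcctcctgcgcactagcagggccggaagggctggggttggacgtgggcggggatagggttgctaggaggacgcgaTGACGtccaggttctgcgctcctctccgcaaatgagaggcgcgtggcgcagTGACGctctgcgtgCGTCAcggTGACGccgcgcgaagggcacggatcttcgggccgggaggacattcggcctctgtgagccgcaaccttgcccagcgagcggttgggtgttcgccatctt
The first base of the core lay at -50 and -20 from the start in Slc6a17, and at -121, -70, -56 and -48 in Slc25a3, with the start counted as 1, and the matches at -20 and -56 are on the opposite strand. Neither gene passed the threshold between genotypes, at -0.25 ± 0.23 for Slc6a17 (limma, adjusted p = 0.52) and with Slc25a3 at 4.68 to 4.91 over all arrays. The windows of Slc4a10 and Slc30a10 hold no TGACG on either strand.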

How the data were processed

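The deposited table holds log2 expression values that the authors made with GCRMA in R 2.4.1, per the submitters' processing notes; the GCRMA version is not given in the sources used here. The table has 11934 probe sets on 12 arrays, and 66 control probe sets were left out. Symbols are those of the platform annotation, and the RefSeq gene table holds all 103 member genes. The tests ran with limma 3.58.1 under R 4.3.3, with 1 mean per group, no block and 8 residual degrees of freedom. Benjamini-Hochberg adjustment covered the 3541 probe sets with log2 at least 4 on at least 3 arrays, at a threshold of 0.05, and the script was tested on simulated data. The 7 comparisons are kainate in mutants and in controls, genotype after kainate and after saline, both averages and the interaction. Named members are, per comparison, the 4 with the largest and the 4 with the smallest moderated t, and all tested members of the transmitter class. Also named are the 3 of each other class with the largest absolute moderated t for averaged kainate and for averaged genotype. Genes with several tested probe sets and members at the filter's edge are named too. Members and lists were chosen with earlier results of these data known. Pools of 3 animals are the replicates, and p-values reflect the spread between arrays within groups. With no block, that spread also holds the parting of replicate 1 from replicates 2 and 3, and the outlying mutant kainate replicate 3. The number of arrays limits precision.

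Arrays with the same replicate number deviated together from their group means in controls for kainate (correlations of 0.627, 0.383 and 0.458) and between genotypes after saline (0.855, 0.47 and 0.482) and after kainate (0.578, 0.333 and 0.19). In mutants they did so for 1 pair only (0.479, 0.0448 and -0.0779 for kainate). The alternatives tried were other filters, quantile normalization again, the replicate number or the batch as a block, and arrays left out; counts of groups that do not overlap without replicate 3 of both kainate groups were added after seeing the data. A few further members are named, chosen after their values were seen.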

Additional observations from a re-analysis of the deposited data

How the results depend on the processing

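No solute carrier probe set passed the threshold under any alternative except without mutant kainate replicate 1. There 2 passed for kainate in mutants and 2 for averaged kainate, Slc16a13 higher and Slc4a10 lower. Of all probe sets, 67 passed there for kainate in mutants (21 higher, 46 lower), against 1 with all arrays. For averaged kainate 56 passed (18 higher, 38 lower), against 5 with all arrays. Leaving out 1 array gave member counts of 0 to 2. Over the arrays left out in turn, Slc16a13 spanned 0.2447 to 0.6395 in mutants and 0.2365 to 0.4339 averaged, and Slc4a10 spanned -3.23 to -1.641 in mutants and -2.332 to -1.537 averaged. Counts over all probe sets moved more. For kainate in mutants they were 1 with all arrays, 0 with no filter, 2 with the replicate block and 2 with replicate 1 against replicates 2 and 3 as a block. They were 4 with quantile normalization again, 5 in the 10-array fit, and 0 to 67 without 1 array. For kainate in controls they were 1, against 3 with the stricter filter, 3 with the replicate block and 2 with replicate 1 against replicates 2 and 3 as a block. They were 2 with quantile normalization, 7 in the 10-array fit and 1 to 4 without 1 array. For averaged kainate they were 5, against 9 with quantile normalization, 20 in the 10-array fit and 5 to 56 without 1 array. For genotype they were 0, against 4 after kainate, 6 after saline and 29 averaged in the 10-array fit, and without 1 array 0 to 15 after kainate and 0 to 2 averaged. The replicate block gave 0 solute carriers in each comparison and changed no other call on them. Members whose groups do not overlap numbered 8 for kainate in mutants, against 4 with the stricter filter (14.8%, beside 11.7% of all probe sets under it) and 19 without replicate 3 of both kainate groups. For kainate in controls they numbered 6, against 11 with no filter (8.66%, beside 4.5%) and 3 with the stricter one (11.1%, beside 14.3%). For genotype after kainate they numbered 2, against 1 with the stricter filter (3.7%, beside 7.35%) and 7 without the 2 arrays. After saline they numbered 15, against 74 with no filter (58.3%, beside 63.1%) and 4 with the stricter one (14.8%, beside 16.9%). Some small differences changed sign, and the cause was not tested. With quantile normalization these were the second probe set of Slc17a5 for kainate in mutants (0.002646), its first for averaged kainate (0.06957), Slc30a6 for averaged kainate (0.01507), Slc16a9 for averaged genotype (0.03526), and Slc17a7 for averaged kainate (0.1322) and genotype (0.1482). In the 10-array fit these were Slc25a29 for the interaction (-0.1031), Slc17a7 for averaged kainate (0.09782) and genotype (0.1083), and Slc6a20a (0.1219) and Slc16a9 (0.005165) for genotype. Without 1 array, the interaction of Slc25a29 spanned -0.1329 to 1.506. Averaged kainate spanned -0.3126 to 0.1018 for Slc6a20a, -0.305 to 0.04066 for Slc6a17, -0.3748 to 0.7878 for Slc1a2 -0.2055 to 0.1471 for Slc17a7, -0.05682 to 0.7627 for Slc25a29, -0.1699 to 0.3767 for Slc25a53, -0.09113 to 0.1279 for Slc30a10, -0.03054 to 0.008652 for Slc30a6, -0.02615 to 0.04968 for Slc38a9 and -0.04385 to 0.1886 for the first probe set of Slc35b4. Averaged genotype spanned -0.3808 to 0.03365 for Slc6a20a, -0.9615 to 0.2011 for Slc1a2 -0.262 to 0.09056 for Slc17a7, -0.7992 to 0.0883 for Slc39a10, -0.09571 to 0.03184 for the first probe set of Slc19a3 and -0.2105 to 0.02193 for the first probe set of Slc35b4.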
